A study of Rattus norvegicus with 6 samples.

Results

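In bulk RNA of whole brain, 9 genes used as markers of upper-layer neurons of the cerebral cortex were compared, of 30498 genes in the tables. The brains were those of newborn rats from a model of restricted fetal growth (CR) and of controls. The 9 genes were taken by symbol, each with a single row in the tables: Cux1, Cux2, Pou3f1, Pou3f2, Pou3f3, Rorb, Mef2c, Mpped1 and Bhlhe22. In CR, 8 of the 9 fell and Cux1 did not pass the test, against 16.2% of all tested genes falling. Mpped1, Mef2c and Bhlhe22 were at 37.7% to 40.4% of their control level, and Pou3f3, Pou3f2, Pou3f1, Rorb and Cux2 at 52.6% to 59.9%. Summed markers of thalamus, midbrain and hindbrain were higher in every CR library than in any control library. The part of regional content in the member results was not tested.

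The CR group was 3 libraries of polyadenylated RNA from pups whose dams were kept on caloric restriction, a rat model of fetal growth restriction, and the control group was 3 libraries of the same kind, labelled only as control. Pups of this Rattus norvegicus study were delivered by Caesarean section and their brains dissected at once; all 6 libraries are labelled whole brain. The labels used here give no strain, sex or degree of restriction and do not say whether libraries come from separate pups or litters; a p-value therefore reflects the spread among these 6 libraries, which may be technical.

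The cortex is built from the inside out: deep-layer neurons are born first, and neurons of the upper layers, most of which project within the cortex and across the corpus callosum, are born later and migrate past them. The identity and wiring of upper-layer neurons depend on transcription factors of several families, among them the cut-like homeobox genes CUX, the POU-homeobox genes of class III and the nuclear receptor RORB. None of these genes is restricted to that cell type. POU3F proteins also act in hypothalamus and in glia, RORB in thalamus and retina, MEF2C in microglia and endothelium, and BHLHE22 in spinal cord and retina, so a level in whole brain sums over all such cells. In bulk RNA, fewer cells of a type and less RNA per cell cannot be told apart.

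Levels are FPKM (fragments per kilobase of exon, scaled to the assigned reads of the library) as deposited, at depths of 14030961 to 25734737 assigned reads. Differences were tested with limma on log2(FPKM + 1); a log2 fold change is the CR mean minus the control mean of those logarithms and is an understatement for genes of low level. A gene rose or fell where its p, adjusted over the 15247 genes averaging 0.5 FPKM or more, was under 0.05; all 9 members passed the filter. By that rule 33.9% of all tested genes changed, 16.2% falling and 17.7% rising, and 24.3% had all CR values below all control values, against 8 of the 9 members that fell and 8 of 9 with all CR values below. The median log2 fold change was -0.85 over the members and 0.01 over all tested genes.

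The libraries differed in regional markers along the same line as the groups. Summed over 7 thalamic markers, the level was 124.9 to 180.1 FPKM in CR libraries and 18.4 to 42.8 FPKM in control libraries. Over 8 midbrain markers it was 23.7 to 27.1 FPKM in CR and 0.604 to 1.248 FPKM in control, with Pax7 and Pou4f2 at 0 in all 3 control libraries. The 8 hindbrain markers summed to 13.3, 11.9 and 53.9 FPKM in CR replicates 1 to 3 and to 0.279 to 0.422 FPKM in control, so CR replicate 3 stood apart. Pan-cortical genes, 10 regulators and markers of cortical excitatory neurons and their precursors, summed to 160.2 to 223.3 FPKM in CR and to 352.8 to 427.8 FPKM in control. All member results below are differences between these same libraries, and the part of regional content in them was not tested. Without CR replicate 3, 8 of the 9 members still fell, against 1555 of all 15247 tested genes. CR replicates 1 and 2 were themselves above every control library in the thalamic, midbrain and hindbrain sums. Leaving out replicate 3 is therefore no test of regional content.

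**Figure D1:**
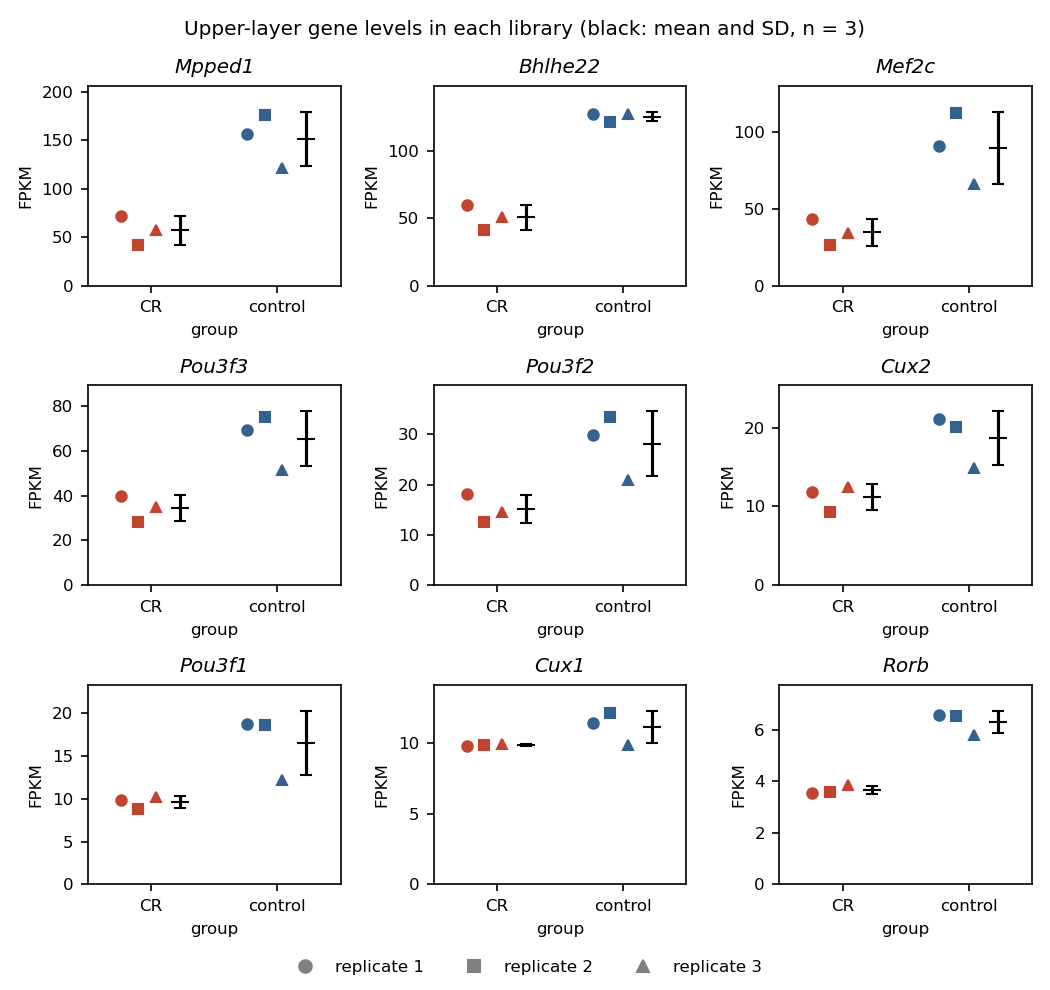
FPKM (vertical axis, from 0) of each member in the 3 CR and the 3 control libraries (horizontal axis), with the symbol giving the replicate and the black bar the mean and SD. In 8 panels the CR points lie below every control point, and for Cux1 control replicate 3, at 9.87 FPKM, lies among the CR points.

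Of the CUX pair, Cux2 fell and Cux1 did not pass. CUX1 and CUX2 are homeodomain proteins that, in mouse, promote dendrite branching and spine formation in upper-layer neurons. Cux2 (ENSRNOG00000001259, chromosome 12 from 34520959 to 34705806, mRatBN7.2) was at 11.8, 9.31 and 12.5 FPKM in CR replicates 1 to 3, against 21.1, 20.03 and 14.8 FPKM in control replicates 1 to 3. Control replicate 3 was the lowest control, and it still lay above every CR library. The log2 fold change of Cux2 was -0.68 (SE 0.147, limma adjusted p = 0.0110).

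Cux1 (ENSRNOG00000001424, chromosome 12 from 20107311 to 20425866) was at 9.82, 9.91 and 9.95 FPKM in the CR libraries and at 11.4, 12.1 and 9.87 FPKM in the control libraries. The CR values were nearly identical, with a coefficient of variation of 0.678%, and control replicate 3 fell among them, so the groups overlapped. Its log2 fold change of -0.15 (95% interval -0.34 to 0.03, limma adjusted p = 0.179) did not pass; without control replicate 3 it was -0.23 and passed (adjusted p = 0.0277). At 2420 to 4630 reads per library over 15.1 kb of exon, counting error was small for Cux1. Its 4 annotated transcripts are summed in this value; in human and mouse the locus also encodes CASP, a Golgi protein that shares exons with CUX1.

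The ratio of Cux2 to Cux1 within a library was 1.199, 0.939 and 1.252 in CR replicates 1 to 3 and 1.85, 1.65 and 1.501 in control replicates 1 to 3. Every CR ratio lay below every control ratio. The log2 difference was -0.57, with an exact two-sided permutation p of 0.1 over the 6 libraries, the smallest that 3 against 3 can give (0.4 adjusted over the 4 paralog ratios tested).

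The 2 CUX promoters are shown because the call differed between the paralogs. RefSeq sequences (build GRCr8) matched 5 of the 9 members. The 250 bases before the annotated start are given 5′ to 3′ in lower case, with matches to the motifs searched in capitals. Cux2 lies at chr12:40179032-40179281 and Cux1, for the first of 2 annotated starts, at chr12:25743721-25743970, both on the plus strand.
Cux2: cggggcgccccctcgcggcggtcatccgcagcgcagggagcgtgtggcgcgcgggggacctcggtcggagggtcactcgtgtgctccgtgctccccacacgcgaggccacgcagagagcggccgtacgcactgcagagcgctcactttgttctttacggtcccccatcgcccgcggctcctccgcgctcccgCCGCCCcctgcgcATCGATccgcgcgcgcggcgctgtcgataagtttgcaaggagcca
Cux1: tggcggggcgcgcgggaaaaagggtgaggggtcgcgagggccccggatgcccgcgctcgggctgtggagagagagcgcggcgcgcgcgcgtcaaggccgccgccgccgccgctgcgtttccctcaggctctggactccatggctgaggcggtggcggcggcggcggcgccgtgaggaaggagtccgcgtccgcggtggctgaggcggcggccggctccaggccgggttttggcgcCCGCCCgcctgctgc
In all, 11 motifs were searched on both strands. They were an E-box spelled CATATG, a second E-box spelled CAGATG, an E-box spelled CAGCTG, the octamer ATGCAAAT bound by POU factors, a CUX motif spelled ATCGAT, another CUX motif spelled ATCAAT, the half-site of ROR receptors spelled AGGTCA, the MEF2 motif CTAAAAATA, the GC box spelled GGGCGG, the TATA box spelled TATAAA and the CCAAT box, named by its letters. No match overlapped one of another motif in the windows shown. The GC box, present in 30.5% of 33469 promoter windows of this length, was found in both windows. The Cux2 window also held ATCGAT, starting 45 bases before the start, a motif found in 0.75% of all windows; in the Cux1 window none of the other 10 motifs was found. GC content was 72.4% for Cux2 and 78.0% for Cux1, against a median of 51.2%. A match is a description of these letters and not evidence of binding.

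All 3 class III POU genes among the members fell. Pou3f2 and Pou3f3, which act jointly in mouse in the production and migration of upper-layer neurons, and Pou3f1, known also as a regulator of myelinating Schwann cells, are intronless or nearly so and encode closely related proteins. Pou3f3 (ENSRNOG00000038909, chromosome 9 from 44945872 to 44948992) was at 39.9, 28.3 and 35.2 FPKM in CR replicates 1 to 3, against 69.5, 75.2 and 51.7 FPKM in control replicates 1 to 3 (log2 fold change -0.90, SE 0.160, adjusted p = 0.00534). The groups did not overlap, with CR replicate 2 the lowest of all 6 libraries.

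Pou3f2 (ENSRNOG00000063836, chromosome 5 from 36077930 to 36083838) was at 18.1, 12.5 and 14.6 FPKM in CR and at 29.9, 33.4 and 20.9 FPKM in control (log2 fold change -0.85, SE 0.182, limma adjusted p = 0.0109). Pou3f1 (ENSRNOG00000047686, chromosome 5 from 136910391 to 136913371) was at 9.88, 8.86 and 10.2 FPKM in CR and at 18.7, 18.6 and 12.2 FPKM in control (-0.70, SE 0.154, adjusted p = 0.0122). For both genes the gap between the highest CR and the lowest control library was narrow, 2.88 FPKM for Pou3f2 and 1.98 FPKM for Pou3f1, with control replicate 3 setting the edge. The largest adjusted p under any alternative was 0.0491 for Pou3f1 and 0.0424 for Pou3f2, both without CR replicate 2.

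The balance among the POU paralogs was compared in the same way. Pou3f3 made up 56.9% to 60.9% of the summed FPKM of these 3 genes over the 6 libraries, Pou3f2 24.3% to 26.6% and Pou3f1 14.4% to 17.8%. The ratio of Pou3f3 to Pou3f2 averaged 2.29 ± 0.106 in CR and 2.35 ± 0.111 in control (SD, n = 3 each, exact permutation p = 0.6). For Pou3f2 to Pou3f1 the exact permutation p was 0.4 and for Pou3f3 to Pou3f1 it was 0.3, and the groups overlapped in all 3 ratios; with 3 libraries a group p cannot go below 0.1, so these values do not show that the balance was the same. The remaining class III gene, Pou3f4, which is expressed in striatum and hypothalamus, was at 5.93, 5.93 and 4.90 FPKM in CR and at 6.52, 6.36 and 4.75 FPKM in control, and its log2 fold change of -0.06 did not pass (adjusted p = 0.757).

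**Figure D2:**
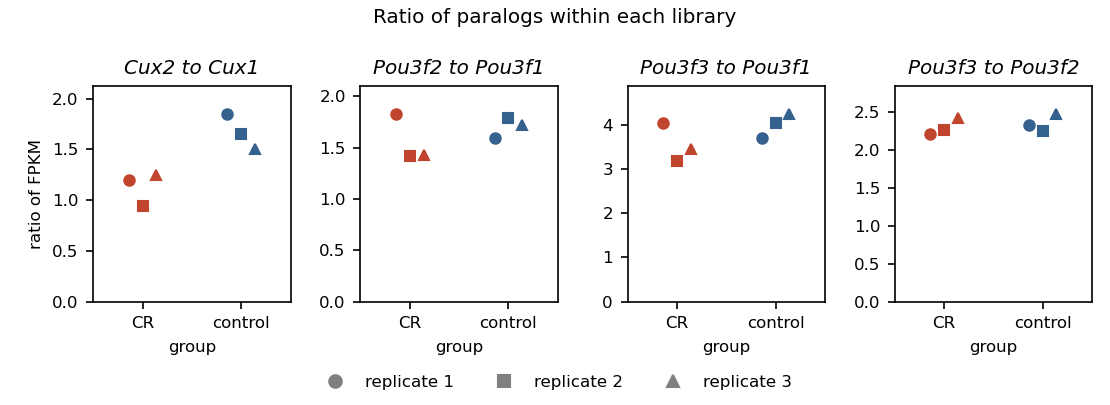
Ratio of FPKM between paralogs (vertical axes, from 0) in the 3 CR and the 3 control libraries, with the symbol giving the replicate. The Cux2 to Cux1 ratio separates the groups, at 0.939 to 1.252 in CR and 1.501 to 1.85 in control, and the 3 POU ratios overlap.

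A long noncoding RNA gene without a symbol in the tables, ENSRNOG00000064212, lies 167 bases from Pou3f3 on the same strand. It was at 38.0, 22.8 and 33.5 FPKM in CR replicates 1 to 3, against 67.3, 82.5 and 58.9 FPKM in control replicates 1 to 3 (log2 fold change -1.14, SE 0.190, limma adjusted p = 0.00427). The order of the CR libraries was that of Pou3f3. The exons of the 2 genes do not overlap, and no gene in the tables overlapped the span of any member. Within 100 kb of the 9 members lay 18 tested genes, of which 8 fell and 1 rose, against 16.2% falling and 17.7% rising among all tested genes; neighbours were not tested as a set.

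Rorb encodes a nuclear receptor that, in mouse, marks and shapes neurons of the granular layer, the target of thalamic axons. Rorb (ENSRNOG00000013413, chromosome 1 from 216363629 to 216544390) was the lowest member, at 3.56, 3.58 and 3.86 FPKM in CR and at 6.57, 6.54 and 5.81 FPKM in control, from 191 to 401 reads per library. Both groups were tight and well apart (log2 fold change -0.65, SE 0.0816, limma adjusted p = 0.00170). Its relative Rora, a receptor of thalamus and of Purkinje cells, moved the other way, with 1.78, 2.20 and 1.72 FPKM in CR and 0.848, 0.872 and 1.153 FPKM in control (0.57, SE 0.1175, adjusted p = 0.00955). Markers of thalamus, another site of Rorb expression, were higher in the same CR libraries, as given above.

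Mef2c encodes an activity-dependent transcription factor of excitatory neurons that regulates synapse number. Mef2c (ENSRNOG00000033134, chromosome 2 from 13993438 to 14132880) was at 43.5, 26.2 and 34.5 FPKM in CR replicates 1 to 3, against 91.2, 112.6 and 66.0 FPKM in control replicates 1 to 3. It varied most among the members within control, with a coefficient of variation of 25.9%, yet every CR value lay below every control value (log2 fold change -1.34, SE 0.222, limma adjusted p = 0.00414). Mef2c is also expressed in microglia, endothelium and interneurons. Of 9 tested microglial markers 5 rose and 4 did not pass (8 rose with limma-voom). The sum over all 10 listed microglial markers was 71.4 to 79.4 FPKM in CR and 43.4 to 57.5 FPKM in control. None of 6 tested endothelial markers passed with limma, none had an unadjusted p under 0.05 and none passed with limma-voom. Without control replicate 1, 1 of them rose. Their sums were 28.0 to 34.3 FPKM in CR and 23.7 to 30.3 FPKM in control. Of 8 interneuron markers 5 fell, 2 rose and 1 did not pass, with sums of 177.9 to 181.5 FPKM in CR and 177.5 to 212 FPKM in control. Among all tested genes 16.2% fell and 17.7% rose. The part of these cells in the Mef2c result was not tested.

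Mef2a and Mef2d, the more broadly expressed relatives of Mef2c, fell too, with smaller values; the difference from Mef2c was not tested. Mef2a had a log2 fold change of -0.32 (SE 0.0518, limma adjusted p = 0.00378) and Mef2d of -0.35 (SE 0.0582, adjusted p = 0.00415). Of the class IIa histone deacetylases, which bind and repress MEF2 proteins, Hdac5 fell, to 17.5, 14.8 and 16.2 FPKM in CR, against 23.1, 25.5 and 23.7 FPKM in control (-0.55, SE 0.0722, adjusted p = 0.00184). Hdac4 (adjusted p = 0.0659) and Hdac9 (0.266) did not pass. A long noncoding RNA gene 46771 bases from Mef2c, ENSRNOG00000062864, was at 18.6, 14.9 and 17.2 FPKM in CR and at 38.8, 37.4 and 38.9 FPKM in control (-1.14, SE 0.0788, adjusted p = 0.000285).

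Mpped1, which encodes a metallophosphoesterase-domain protein enriched in cortical neurons, was the most abundant member in both groups. Mpped1 (ENSRNOG00000010834, chromosome 7 from 114944764 to 115011787) was at 71.6, 41.9 and 57.7 FPKM in CR replicates 1 to 3, against 155.9, 176.5 and 121.7 FPKM in control replicates 1 to 3. No control library came within 50.1 FPKM of the highest CR library. Its log2 fold change of -1.41 (SE 0.200, limma adjusted p = 0.00240) was the largest decrease of the 9. Its relative Mpped2 fell to 30.0, 29.9 and 31.8 FPKM in CR, against 46.4, 46.8 and 37.9 FPKM in control (-0.50, SE 0.0832, adjusted p = 0.00439).
The promoter window of Mpped1 (RefSeq, GRCr8, chr7:116824504-116824753, plus strand) is shown as that of the member with the largest decrease, with its motif match in capitals.
Mpped1: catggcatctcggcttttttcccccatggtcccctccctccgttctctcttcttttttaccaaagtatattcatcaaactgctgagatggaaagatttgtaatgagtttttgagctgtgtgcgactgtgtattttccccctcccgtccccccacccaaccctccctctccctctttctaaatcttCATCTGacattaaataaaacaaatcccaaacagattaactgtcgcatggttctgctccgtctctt
It held CAGATG on the minus strand, an E-box read here as CATCTG and found on either strand in 13.96% of all windows, and none of the other 10 motifs. Its GC content of 45.2% was below the median of 51.2%.

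Bhlhe22 encodes a transcriptional repressor of the basic helix-loop-helix family that in mouse sets area identity in the cortex and works with PRDM8, a partner it brings to DNA. Bhlhe22 (ENSRNOG00000021745, chromosome 2 from 100486400 to 100489510) was at 59.6, 41.4 and 51.1 FPKM in CR and at 127.5, 121.3 and 127.3 FPKM in control. It had the tightest control values of the 9, with a coefficient of variation of 2.80%, and the smallest adjusted p (log2 fold change -1.30, SE 0.116, adjusted p = 0.000577). Prdm8 fell with it, to 14.4, 13.6 and 13.9 FPKM in CR, against 30.9, 31.4 and 39.1 FPKM in control (-1.21, SE 0.0909, limma adjusted p = 0.000388). Cdh11, a cadherin gene that this pair represses in mouse, fell as well, by 0.29 on the log2 scale (SE 0.0588, adjusted p = 0.00843). Bhlhe23, the nearest relative, was at 0.835, 0.947 and 0.633 FPKM in CR and at 0.354, 0.517 and 0.318 FPKM in control, and did not pass (0.37, adjusted p = 0.0525).

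**Figure D3:**
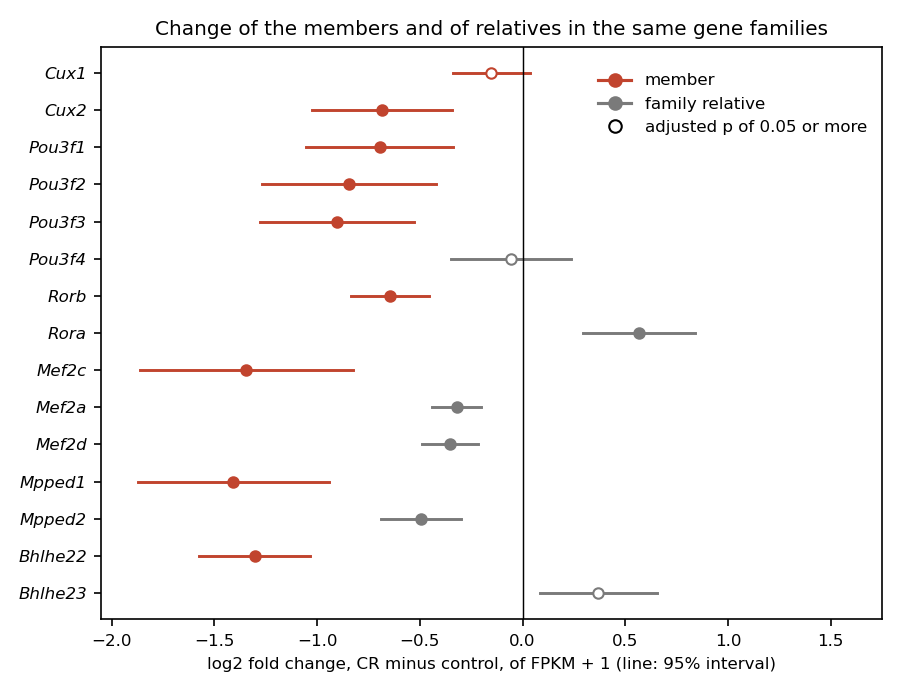
Log2 fold change, CR minus control, of the 9 members and of 6 tested relatives from the same gene families (horizontal axis; line, 95% limma interval; open symbol, adjusted p of 0.05 or more). The members lie at -0.15 for Cux1 and between -1.41 and -0.65 for the rest, and the relatives between -0.50 for Mpped2 and 0.57 for Rora.

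The order of levels was nearly the same in both groups. In CR it was Mpped1, Bhlhe22, Mef2c, Pou3f3, Pou3f2, Cux2, Cux1, Pou3f1 and Rorb, and in control Pou3f1 stood above Cux1. Neighbours in this order whose values overlapped in CR were Mpped1 and Bhlhe22 (57.1 ± 14.9 and 50.7 ± 9.12 FPKM, SD, n = 3), Bhlhe22 and Mef2c, Mef2c and Pou3f3 (34.7 ± 8.65 and 34.5 ± 5.84 FPKM), Cux2 and Cux1, and Cux1 and Pou3f1 (9.89 ± 0.0671 and 9.65 ± 0.698 FPKM). In control they were Mpped1 and Bhlhe22, Mef2c and Pou3f3, Pou3f2 and Cux2, and Cux2 and Pou3f1 (18.7 ± 3.38 and 16.5 ± 3.76 FPKM). The values of the other neighbouring pairs did not overlap.

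The members also shared an order of libraries within the groups. CR replicate 2 was the lowest CR library for 7 members, the exceptions being Cux1 and Rorb, and control replicate 3 was the lowest control library for 8, the exception being Bhlhe22. Over all tested genes CR replicate 2 was the lowest CR library for 32.2% and control replicate 3 the lowest control for 33.0%. The sum of pan-cortical genes was likewise lowest in CR replicate 2 (160.2 FPKM) and, within control, in replicate 3 (352.8 FPKM). In the same pair of libraries the thalamic markers were highest within their group, at 180.1 FPKM in CR replicate 2 and 42.8 FPKM in control replicate 3. The sum of cerebellar markers was likewise highest in CR replicate 2 (102.8 FPKM) and, within control, in replicate 3 (33.0 FPKM). Sums over hypothalamus, midbrain and hindbrain did not follow this. The hypothalamic sum was highest within CR in replicate 2 (64.8 FPKM) but lowest within control in replicate 3 (5.58 FPKM), the midbrain sum was highest in CR replicate 2 (27.1 FPKM) and in control replicate 1 (1.248 FPKM), and the hindbrain sum was lowest within CR in replicate 2 (11.9 FPKM). The part of regional content in this order was not tested.

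**Figure D4:**
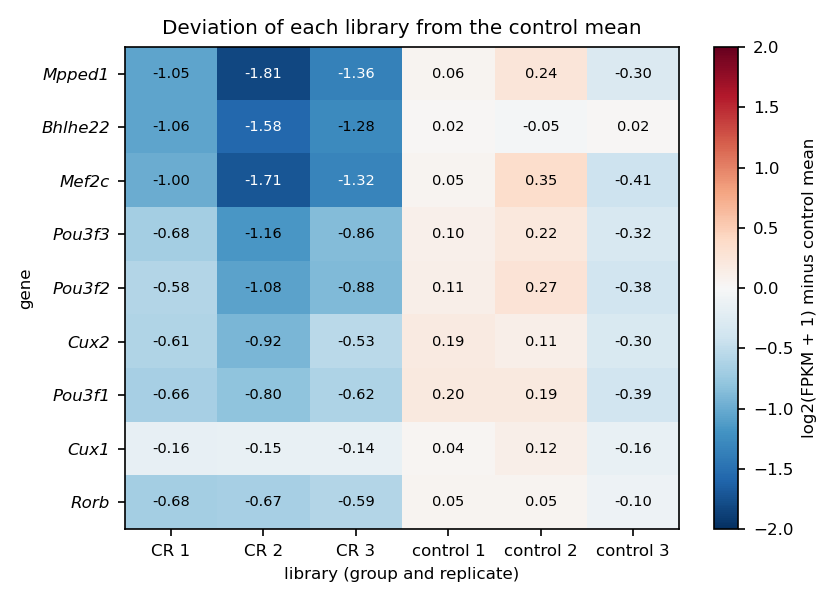
Log2(FPKM + 1) of each member (rows) in each library (columns) minus the mean of the 3 control libraries, printed in each cell and coloured from blue (lower) to red (higher). CR replicate 2 has the deepest decreases, to -1.81 for Mpped1, and the row of Cux1 stays between -0.16 and 0.12.

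By profile over the 6 libraries (centred log2 values, root mean square distance), Pou3f2 and Pou3f3 were the closest pair of members (0.0573), followed by Mef2c and Mpped1 (0.0767) and by Cux2 and Pou3f1 (0.0786). Among 8376 other named genes averaging 5 FPKM or more, the nearest to Pou3f3 was Dok5 (0.0355), an adaptor gene of callosal neurons, which was also the nearest to Pou3f2 (0.0910). Neurod6, a transcription factor gene of cortical excitatory neurons, was the nearest to Mpped1 (0.0879) and the second nearest to Mef2c (0.103), after Sla (0.0805). Homer1, a postsynaptic scaffold gene, was the nearest to Rorb (0.0370). Cux2 and Pou3f1 lay near Adora2a (0.0577 and 0.0724), the adenosine receptor gene of striatal neurons, Pou3f1 nearest to the neuropeptide gene Npy (0.0722), and Cux1 nearest to Tenm3 (0.0217). These distances describe likeness in these libraries and are dominated by the difference between the groups.

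Other genes of upper-layer neurons, from a list of 12, mostly fell too. Of 11 tested, 9 fell, 1 rose and 1 did not pass, with a median log2 fold change of -0.67, against 16.2% falling among all tested genes. Inhba, an activin subunit gene, had a log2 fold change of -1.34 (SE 0.241, limma adjusted p = 0.00551) and Dok5 of -0.92 (SE 0.144, adjusted p = 0.00342). Lamp5, a gene of upper-layer neurons and interneurons in the mature cortex, rose, with 6.37, 5.98 and 14.8 FPKM in CR and 1.61, 1.63 and 1.76 FPKM in control (1.81, SE 0.286, adjusted p = 0.003485). CR replicate 3, the library with the high hindbrain markers, held the highest Lamp5 value. CR replicates 1 and 2 were also above every control library for Lamp5. The part of regional content in the Lamp5 result was not tested. Unc5d, a netrin receptor gene of migrating upper-layer neurons, did not pass (adjusted p = 0.559).

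Decreases were not limited to upper-layer genes. For the counts that follow, the shares over all tested genes were 16.2% falling and 17.7% rising. Of 12 deep-layer genes 8 fell, 2 rose and 2 did not pass (median log2 fold change -0.58), and of 10 pan-cortical genes 7 fell, 1 rose and 2 did not pass (median -0.85). The pan-cortical gene that rose, Pax6, had overlapping groups and an adjusted p of 0.0482 with limma, and did not pass under 7 of the 16 alternatives. Of 8 striatal markers 4 fell, 1 rose and 3 did not pass. Astrocyte markers were higher, with 6 of 7 rising and 1 not passing (median 0.72), and summed to 145.1 to 172.1 FPKM in CR and 74.6 to 100.3 FPKM in control; the part of these cells in the member results was not tested. Among deep-layer regulators, Tbr1 had a log2 fold change of -1.15 (SE 0.1535, limma adjusted p = 0.00195) and Fezf2 of -1.14 (SE 0.132, adjusted p = 0.00131). The deep-layer genes that rose, Pcp4 (421.6, 498.6 and 466.4 FPKM in CR, against 315.9, 303.3 and 290.1 FPKM in control) and Foxp2 (12.7, 14.9 and 11.98 FPKM in CR, against 8.60, 9.74 and 8.86 FPKM in control), are also expressed in cerebellum and thalamus. The part of regional content in these rises, and in the decreases of the other deep-layer genes, was not tested.

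**Figure D5:**
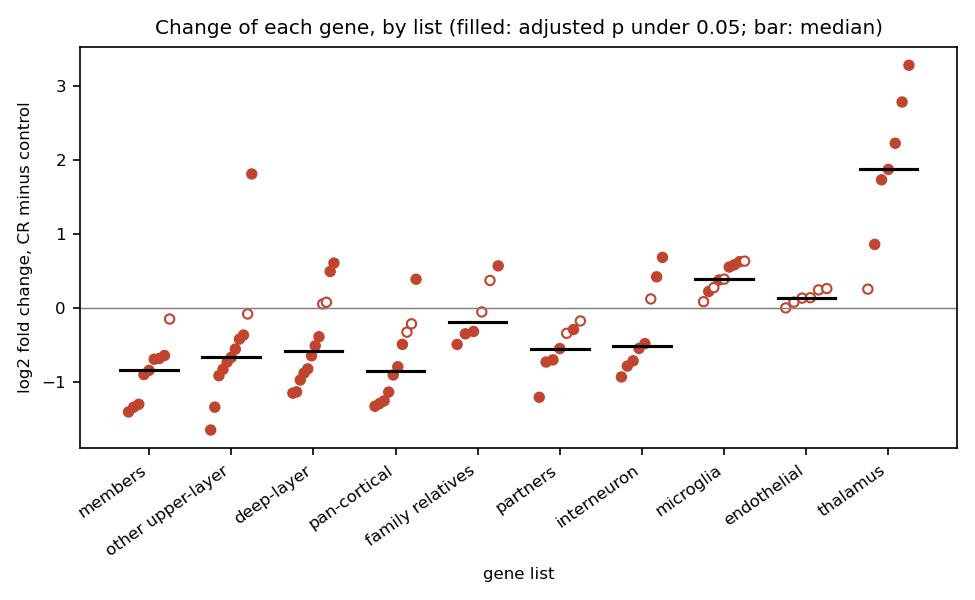
Log2 fold change, CR minus control (vertical axis), of each tested gene in 10 lists (horizontal axis), with filled points for an adjusted p under 0.05 and a bar at the median. The members (median -0.85), other upper-layer, deep-layer and pan-cortical genes lie mostly below 0, microglial genes (median 0.39) and thalamic genes (median 1.87) above it.

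Set against pan-cortical genes of the same library, the members differed in direction, a split that changed in part with the genes summed. As a percentage of the summed pan-cortical FPKM, Cux1 was at 4.40%, 6.19% and 5.17% in CR and at 2.702%, 2.83% and 2.80% in control, and Cux2, Pou3f1 and Pou3f3 also had all CR values above all control values. Mpped1 (32.1%, 26.1% and 30.0% in CR, 36.8%, 41.2% and 34.5% in control) and Bhlhe22 had all CR values below. For Pou3f2, Rorb and Mef2c the groups overlapped. Where groups did not overlap the exact two-sided permutation p was 0.1, the smallest possible (0.15 adjusted over the 9 members). With Neurod6, the most abundant gene of that list, left out, Cux1 alone stayed wholly above, Mef2c, Mpped1 and Bhlhe22 were wholly below and the other 5 overlapped.

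Against the summed deep-layer genes all 9 members were lower in CR, with an exact permutation p of 0.1 each, but that sum rests on Pcp4. Without Pcp4 the log2 differences were -0.64 for Mef2c, -0.69 for Mpped1 and -0.59 for Bhlhe22, with no overlap, and 0.57 for Cux1, wholly above. Cux2, Pou3f1, Pou3f2, Pou3f3 and Rorb then overlapped between the groups, with log2 differences from -0.19 for Pou3f3 to 0.00 for Cux2. For Mef2c, Mpped1, Bhlhe22 and Cux1 the exact permutation p without Pcp4 was again 0.1.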

How the data were processed

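The authors deposited FPKM for each Ensembl gene together with its exon length, in a separate table for each library. TRIzol extraction and a stranded kit on polyadenylated RNA are stated per the labels' protocols. Per the submitters' processing notes, featureCounts 2.0.1, STAR 2.7.10a, cutadapt 1.16, Trimmomatic 0.36 and Trim Galore 0.4.4 were used with build mRatBN7.2, no settings being named; the strand setting was not given in the sources used here. FPKM times length gave whole multiples of 1 step (within 0.05) for 100% of values above 0, so reads per gene were worked out; 3 reads over 1 kb equal 0.117 to 0.214 FPKM. Replicates differed by more than counting noise (mean chi-square per gene 6.62 to 15.6).

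The test was limma 3.58.1 (R 4.3.3) on log2(FPKM + 1), group as the only term, trend on the mean, two-sided, Benjamini-Hochberg over the 15247 genes averaging 0.5 FPKM or more. Tested on simulated data, it missed large changes mainly in genes of low level, and its share of false calls was on average somewhat above the nominal one, so adjusted p-values close to the threshold (such as those of Pax6, and of Pou3f1 and Pou3f2 without CR replicate 2) are weak calls. Ratios were tested by exact permutation over the 20 assignments of 6 libraries to groups. Members, lists and the rule for named genes (every member; leading list genes by change; the 2 nearest profiles per member) were chosen with earlier results of these data known, so list counts are no independent support. Listed genes not in the tables used here (Rasgrf2, Cldn5, Flt1) were not analysed, and some named genes are not reported here. Alternatives were pseudocounts of 0.1 and 0.5, no filter, a filter at 2 FPKM, scaling by median ratios or quantiles, limma run robustly or without trend, a block for replicate number, limma-voom on the reads and each library left out (the filter still being set on all 6). Promoter sequences are RefSeq's (GRCr8) and were not used with the deposited coordinates.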

Additional observations from a re-analysis of the deposited data

How the results depend on the processing

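The 8 members that fell did so under all 16 alternatives, and Cux1 passed under 1 of them, without control replicate 3. Leaving out 1 library in turn gave 1548 to 2345 genes lower and 1695 to 2692 higher, against 2467 and 2706 with all 6; the lowest counts were without CR replicate 2 (1548 lower, 1695 higher) and without CR replicate 3 (1555 and 1784). With the replicate number as a block, 2093 genes were lower and 2352 higher and the same 8 members fell. Same-numbered libraries deviated together with correlations of 0.0245, 0.0198 and 0.0454, each the best match of its library but under 0.1, so the numbers were not taken as pairs. The pan-cortical gene that rose, Pax6, did not pass with no filter, with median-ratio size factors or without the trend (0 higher each), and 0 to 1 passed with a library left out. Of 6 tested family relatives 3 fell and 1 rose with the main settings, against 16.2% falling and 17.7% rising among all tested genes. Among these relatives 2 rose with no filter (8 tested), without the trend, with robust limma and with limma-voom. With the filter at 2 FPKM, which leaves fewer genes tested, 0 rose. The Pou3f3 to Pou3f2 log2 difference was -0.0712 to 0.0028 with a library left out and changed sign without control replicate 3. Relative to pan-cortical genes Pou3f3 changed sign without Neurod6 (-0.0244), and relative to deep-layer genes Cux1 did without Pcp4 (0.57), since those genes dominate the sums. Rorb, at 191 to 401 reads per library, is the member most limited by depth.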
